A study of Homo sapiens with 24 samples.

Results

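The genes described here are those of respiratory complex I, taken as every single-gene entry of the count tables whose symbol starts with NDUF. The rule found 49 entries with 47 symbols among 19242 single-gene entries. Of these, 39 entries (37 symbols) are subunits, 7 are assembly factors (NDUFAF1 to NDUFAF7) and 3 are neither: NDUFA4, a subunit of complex IV despite its name, its paralog NDUFA4L2, and the read-through locus NDUFC2-KCTD14. Another 4 entries join an NDUF gene with a neighbour and were not counted as members. Reads were measured in 24 libraries of poly(A) RNA from HEK293, an established line of human embryonic kidney cells. A control line expressing Flag/HA and a line overexpressing Flag/HA-tagged ZC3H7B (ZC3H7B-OE) were each sampled at 0, 2, 4 and 6 h of a chase, with 3 libraries in each of the 8 groups. Every group, controls included, had first received 100 µM 4-thiouridine (s4U) and 1 µg/mL doxycycline for 24 h, and the chase was 10 mM uridine. In SLAM-seq, RNA made while s4U is present later shows T>C conversions, so reads that carry them are called labelled reads. The series is about codons and the zinc finger proteins ZC3H7A and ZC3H7B: how they bear on the stability and translation of mRNA. The labels do not say whether either line is 1 clone, nor whether a group's 3 libraries are 3 cultures; p-values therefore reflect only how these libraries spread, which may be technical.

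Complex I (NADH:ubiquinone oxidoreductase) is the entry point of electrons from NADH into the mitochondrial respiratory chain, and it pumps protons across the inner membrane while the electrons pass to ubiquinone. A matrix arm holds the N module, where NADH is oxidised, and the Q module, where ubiquinone is reduced, and a membrane arm with a proximal and a distal part carries the proton pumps. The catalytic core is completed by accessory subunits, and assembly factors help build the modules without staying in the finished enzyme. Core subunits made from mitochondrial DNA have other gene names and are not members.

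Libraries held 1502068 to 3676254 reads, and NDUF entries together held 4040 to 6809 of them. Control 0 h replicate 3 stood apart: NDUF entries made up 4533 reads per 1000000 there and 1687 to 2902 in the other libraries, its scaling factor (TMM) was 0.724 against 0.925 to 1.08, and 11032 entries had a read against 12005 to 13201. Results that lean on it are therefore also given without it. ZC3H7B itself had 7362 reads in control and 9173 in ZC3H7B-OE, 0.28 higher on the log2 scale (SE 0.08, adjusted p = 0.0035 by edgeR, from 12 libraries of each line), so the entry of the named gene was higher in the line labelled as overexpressing it, by a small amount. Whether this entry counts reads of the tagged copy is not given in the sources used here. Its log2 odds of labelled against unlabelled reads at 6 h differed by -1.59 in ZC3H7B-OE against control (SE 0.18, edgeR adjusted p = 1.07e-09). Of 7 HEK293 markers, 6 had an entry; PAX2 had 13 reads in all libraries and NEFM 2, and the list summed to 61.2 to 104 CPM in control and 44.6 to 90.3 in ZC3H7B-OE. Of 4 leukocyte markers, PTPRC and CD3E were listed at 0, while CD68 had 1908 reads in control and 2287 in ZC3H7B-OE and CD79A 64 and 120; the list summed to 35.1 to 197 CPM in control and 54.9 to 126 in ZC3H7B-OE. Both endothelial markers with an entry, VWF and CDH5, were at 0, and 4 fibroblast markers, 1 of them at 0, summed to at most 6.30 CPM in a library. The part of these markers in the results was not tested.

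Levels are given in CPM (counts per 1000000 reads), with library sizes scaled by TMM, and a line difference is the log2 fold change of ZC3H7B-OE minus control, as the mean of the 4 times, from edgeR's quasi-likelihood fit over all entries. An entry counts as called where the Benjamini-Hochberg adjusted p is under 0.05. Of the 49 entries, 38 passed the filter on low counts: 31 of 39 subunits, 4 of 7 assembly factors and all 3 others. Those not tested included NDUFS4, NDUFS6, NDUFA8, NDUFA10, NDUFA12, NDUFB9, the second NDUFB8 entry (ENSG00000255339), NDUFAF1, NDUFAF2 and NDUFAF6. Among them NDUFAF2 was listed at 0. Of the NDUF entries, 23 share exonic sequence with a gene on the other strand in GENCODE release 29, and strand use in the counting is not given in the sources used here, so their reads may include those of the neighbour.

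As the mean of the 4 times, complex I genes did not shift together between the lines: some subunits were higher and others lower in ZC3H7B-OE. At single times the median of the members moved, as given further below. Of 38 tested, 6 rose and 8 fell, where 45.8% of all entries tested were called (20.3% higher, 25.4% lower), so the 14 calls are no larger a share than the background. The median line difference was 0.06 over the members and 0.01 over all entries tested. Among subunits 5 rose and 7 fell of 31, with a median of 0.08, and among assembly factors 0 rose and 1 fell of 4, with a median of -0.23. In bulk RNA, fewer cells of a kind and less RNA per cell cannot be told apart. Without control 0 h replicate 3, 11 of 39 tested rose and 7 fell (21.7% and 24.8% of all entries); NDUFS5, NDUFS8, NDUFB7, NDUFB10 and NDUFC1 then passed as higher, and NDUFA9 no longer passed as lower. The medians were then 0.17 over the members, 0.21 over the subunits and 0.02 over all entries. The count of higher members was 13 of 37 without the 0 h libraries (22% of all entries) and 2 of 36 without the 4 h libraries (17%), and that of lower members 7 (22.2%) and 5 (22.8%).

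**Figure D1:**
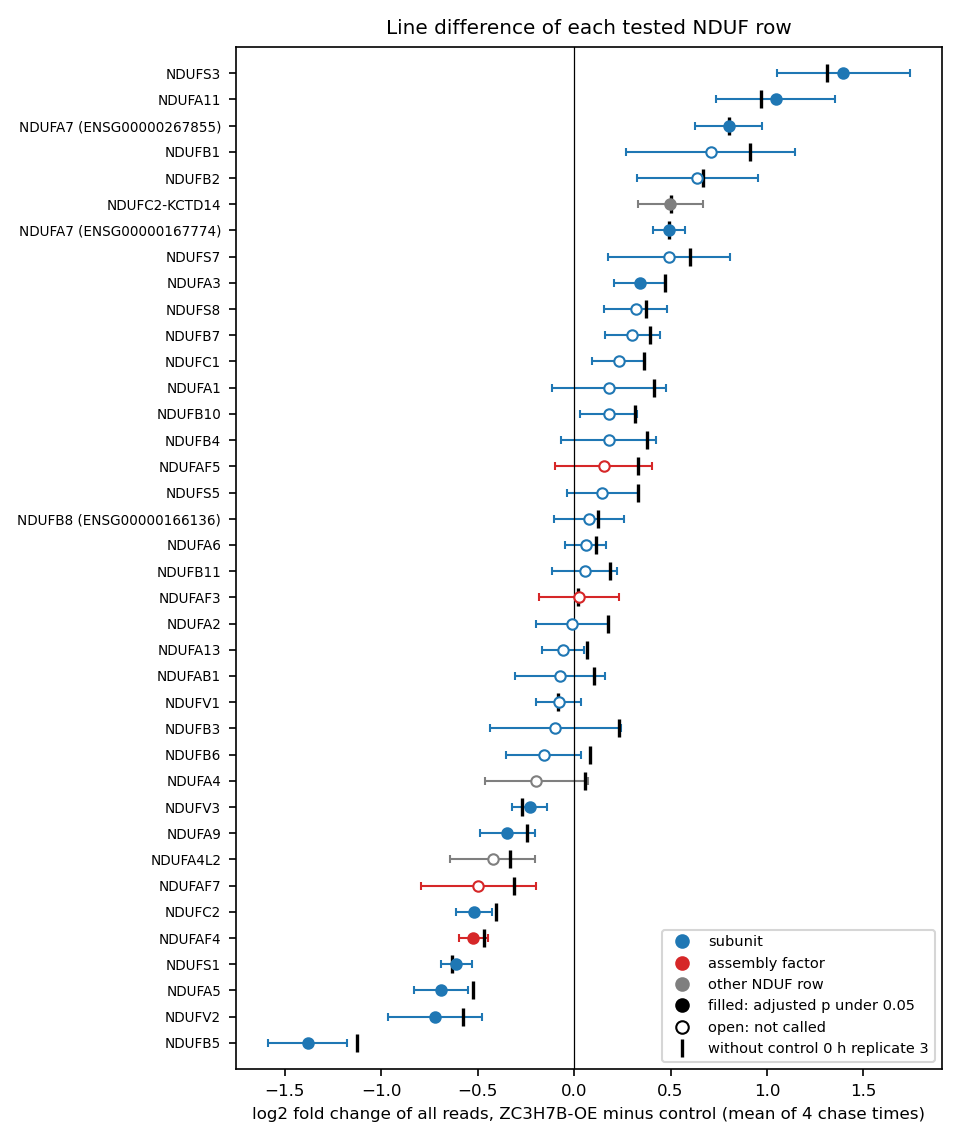
Log2 fold change of all reads between the lines (x axis, ZC3H7B-OE minus control, mean of 4 chase times) for each of the 38 NDUF entries tested; points are fitted values, bars are 1 SE, filled points were called and black ticks are the values without control 0 h replicate 3. NDUFB5 lies lowest at -1.38 and NDUFS3 highest at 1.40, and the subunits spread to both sides of 0.

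Because the series is about codons, the share of codons ending in G or C (GC3) was set beside the line difference. Coding sequences were taken by gene ID from GENCODE release 29 (GRCh38), 1 transcript a gene, since the build named in the submitters' processing notes is GRCh37; 37 of 38 tested members and 9430 of 10038 tested entries had one. The 8 members that fell had a median GC3 of 40.1% (37.9% to 58.3%), the 5 that rose and had a value 72.3% (55.3% to 83.3%), and the 24 not called 64.5% (35.7% to 91.2%). Over all genes the medians were 44.3%, 73.3% and 61.3%. Pearson's r between GC3 and the line difference was 0.52 and Spearman's rho 0.58 over the 37 members, and 0.45 and 0.50 over the 9430 genes, the same sign and a like size. Other features went with the line difference as well. For the number of T in the transcript, r was -0.37 and rho -0.72 over the members, and -0.18 and -0.24 over all genes. For the length of the 3′ UTR they were -0.34 and -0.54, and -0.18 and -0.23. The part of each feature was not tested. These are correlations across genes that share libraries and base composition, given as a description. Assembly factors had a median GC3 of 40.8% (7 entries) and subunits 58.6% (37 entries). A low GC3 did not go with a called fall in each case: NDUFB3, at 35.7%, had a line difference of -0.10, and a high one not with a called rise, as in NDUFA13 at 82.6% with -0.06; neither was called without control 0 h replicate 3 (0.23 and 0.07).

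The first 84 codons of 4 members that fell and 2 that rose are shown as examples of codon endings. They were chosen after their values were seen, from called members toward both ends of the GC3 range, and are not typical: NDUFC2, which fell, has a GC3 of 51.3% and NDUFS3, which rose, 64.0%. A run of 84 codons is the whole coding region of NDUFA3, the shortest of them. Letters are the coding strand from the start codon, 5′ to 3′, from the transcript sequences of GENCODE release 29, and capitals mark a G or C in the last position of a codon.
NDUFS1: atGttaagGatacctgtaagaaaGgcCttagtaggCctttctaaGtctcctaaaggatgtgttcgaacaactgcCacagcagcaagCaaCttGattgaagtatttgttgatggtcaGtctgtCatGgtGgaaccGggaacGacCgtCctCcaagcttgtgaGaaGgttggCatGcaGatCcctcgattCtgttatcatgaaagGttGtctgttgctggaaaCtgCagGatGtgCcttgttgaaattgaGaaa
NDUFB5: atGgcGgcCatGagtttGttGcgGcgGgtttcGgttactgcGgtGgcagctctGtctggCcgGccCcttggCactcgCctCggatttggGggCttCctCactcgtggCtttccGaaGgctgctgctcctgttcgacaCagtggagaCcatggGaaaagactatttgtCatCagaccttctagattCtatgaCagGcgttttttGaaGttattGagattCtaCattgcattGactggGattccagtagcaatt
NDUFA5: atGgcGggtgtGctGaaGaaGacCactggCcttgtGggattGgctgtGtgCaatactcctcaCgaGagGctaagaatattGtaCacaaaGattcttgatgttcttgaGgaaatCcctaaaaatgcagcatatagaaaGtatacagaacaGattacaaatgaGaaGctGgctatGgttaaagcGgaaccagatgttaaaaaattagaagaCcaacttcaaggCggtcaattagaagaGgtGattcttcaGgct
NDUFAF4: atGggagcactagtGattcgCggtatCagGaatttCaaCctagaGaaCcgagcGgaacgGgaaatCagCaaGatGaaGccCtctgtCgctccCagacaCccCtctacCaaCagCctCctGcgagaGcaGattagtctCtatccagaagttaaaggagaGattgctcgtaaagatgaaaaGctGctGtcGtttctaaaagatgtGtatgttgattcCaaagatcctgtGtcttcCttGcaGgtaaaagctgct
NDUFA3: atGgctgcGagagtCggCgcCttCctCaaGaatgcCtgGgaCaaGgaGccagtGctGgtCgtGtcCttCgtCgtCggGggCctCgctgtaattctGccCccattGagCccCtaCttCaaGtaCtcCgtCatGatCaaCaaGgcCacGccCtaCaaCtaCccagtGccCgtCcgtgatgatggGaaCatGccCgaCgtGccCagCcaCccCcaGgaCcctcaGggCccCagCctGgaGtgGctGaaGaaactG
NDUFA11: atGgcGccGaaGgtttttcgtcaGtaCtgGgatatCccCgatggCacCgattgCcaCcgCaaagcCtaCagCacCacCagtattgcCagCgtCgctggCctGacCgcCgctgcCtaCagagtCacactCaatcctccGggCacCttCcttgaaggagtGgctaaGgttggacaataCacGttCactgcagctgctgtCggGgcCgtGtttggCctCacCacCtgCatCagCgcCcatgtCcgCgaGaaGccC
In this stretch 34 of 84 codons end in G or C in NDUFS1, 40 in NDUFB5, 32 in NDUFA5 and 40 in NDUFAF4, against 70 in NDUFA3 and 56 in NDUFA11. Over the whole coding region the share is 38.2% in NDUFS1 (278 of 727 codons), 39.7% in NDUFB5 (75 of 189), 37.9% in NDUFA5 (44 of 116) and 40.6% in NDUFAF4 (71 of 175). It is 83.3% in NDUFA3 and 72.3% in NDUFA11 (102 of 141). In GRCh38 the genes lie at chr2:206114817-206159603 (NDUFS1, minus strand), chr3:179604690-179627647 (NDUFB5, plus), chr7:123536997-123558255 (NDUFA5, minus), chr6:96889313-96897881 (NDUFAF4, minus), chr19:54102728-54109257 (NDUFA3, plus) and chr19:5891276-5904006 (NDUFA11, minus).

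**Figure D2:**
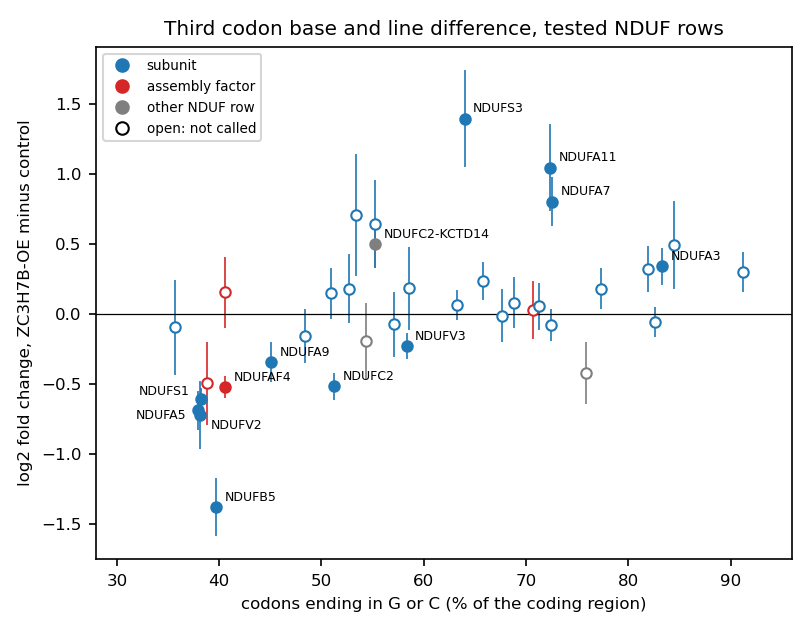
Codons ending in G or C as a percentage of the coding region (x axis) against the log2 fold change between the lines (y axis, ZC3H7B-OE minus control) for the 37 tested NDUF entries with a coding sequence; bars are 1 SE and filled, named points were called. The called members below 0 lie between 37.9% and 58.3%, and those above 0 between 55.3% and 83.3%.

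In the matrix arm the N module held calls both ways, 2 higher and 3 lower of 8 entries tested (20.3% and 25.4% of all entries). NDUFS1, the large iron-sulfur subunit of the NADH-oxidising part, had 121, 128 and 101 CPM in control at the start, 137, 130 and 147 after 2 h, 178, 189 and 171 after 4 h, and 222, 217 and 191 after 6 h. In ZC3H7B-OE it had 69.4, 56.7 and 74.8 CPM at the start, 68.5, 119 and 113 after 2 h, 103, 102 and 101 after 4 h, and 167, 166 and 159 after 6 h. At each of the 4 times every ZC3H7B-OE library lay below every control library, and both lines climbed along the chase. At single times, 15.7% to 23% of all entries had such libraries below control without overlap, and 12% to 20% above. The share of all entries apart at all 4 times was not counted, so how unusual this is cannot be judged, here or for the members below. NDUFS1 fell by 0.61 on the log2 scale (SE 0.08, edgeR adjusted p = 1.35e-07, 1.53-fold lower) and by 0.64 without control 0 h replicate 3. NDUFV2, an iron-sulfur subunit next to the flavin site, fell by 0.72 (SE 0.24, edgeR adjusted p = 0.0151) at levels of 1.99 to 33.2 CPM with overlapping libraries. NDUFV3, an accessory subunit of the same module, fell by 0.23 (SE 0.09, adjusted p = 0.0397). NDUFV1, which binds NADH and the flavin, had a line difference of -0.08 (SE 0.12, adjusted p = 0.6).

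NDUFA7, an accessory subunit of the N module, has 2 entries in the tables. ENSG00000267855 is the gene NDUFA7 in GENCODE release 29, and ENSG00000167774 is there a separate locus, AC010323.1, that overlaps it on the same strand, so reads of the 2 entries cannot be cleanly told apart. Both also share exonic sequence with RPS28 on the other strand. ENSG00000167774 had 267, 217 and 259 CPM in control at the start, 235, 233 and 171 after 2 h, 105, 95.9 and 106 after 4 h, and 63.8, 59.5 and 85.8 after 6 h. In ZC3H7B-OE it had 288, 275 and 391 CPM at the start, 328, 332 and 268 after 2 h, 157, 142 and 129 after 4 h, and 88.0, 105 and 122 after 6 h. The ZC3H7B-OE libraries lay above those of control at all 4 times, with a line difference of 0.49 (SE 0.08, edgeR adjusted p = 1.03e-05, 1.41-fold higher). ENSG00000267855 had 4.58 to 17.3 CPM in control and 11.5 to 25.5 in ZC3H7B-OE. Its libraries were apart at 4 and 6 h and overlapped at 0 and 2 h, and it rose by a log2 of 0.80 (SE 0.17, edgeR adjusted p = 0.000297).

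In the Q module, 1 entry rose and 2 fell of 5 tested (20.3% and 25.4% of all entries). NDUFA5, an accessory subunit there, had 142, 129 and 392 CPM in control at the start, 138, 175 and 135 after 2 h, 188, 207 and 189 after 4 h, and 280, 223 and 257 after 6 h. In ZC3H7B-OE it had 64.1, 67.8 and 57.4 CPM at the start, 124, 68.8 and 91.9 after 2 h, 184, 183 and 183 after 4 h, and 200, 234 and 207 after 6 h. ZC3H7B-OE was below control in every library at 0, 2 and 4 h and overlapped it at 6 h. NDUFA5 fell by 0.69 on the log2 scale (SE 0.14, edgeR adjusted p = 0.000348), and by 0.53 without control 0 h replicate 3, the library with 392 CPM. NDUFA9, which sits where the Q module meets the membrane, fell by 0.35 (SE 0.14, adjusted p = 0.0437) and by 0.24 without that library, where it was not called (adjusted p = 0.0937). NDUFS3, a core subunit of this module, was counted at 85 reads in control and 164 in ZC3H7B-OE. Its control 0 h libraries held 0, 2 and 0 reads and those of ZC3H7B-OE 7, 10 and 3, the other control libraries 4 to 20 and the other ZC3H7B-OE libraries 5 to 27. The fitted line difference of 1.40 (SE 0.35, edgeR adjusted p = 0.00125) is therefore that of a gene with no read in 2 control libraries, and its size depends on the fit. NDUFS3 also shares exonic sequence with KBTBD4 and CELF1 on the other strand.

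In the membrane arm, the proximal part had 2 higher and 1 lower of 7 tested (20.3% and 25.4% of all entries). The distal part had 0 higher and 1 lower of 10. NDUFB5, an accessory subunit of the distal part, was the lowest of all members relative to control. In control it had 32.5, 34.8 and 148 CPM at the start, 30.2, 25.4 and 28.6 after 2 h, 16.7, 16.7 and 13.8 after 4 h, and 19.0, 16.5 and 19.2 after 6 h. In ZC3H7B-OE it had 13.1, 17.0 and 18.0 CPM at the start, 15.0, 10.7 and 16.8 after 2 h, 4.63, 7.79 and 8.05 after 4 h, and 9.55, 7.93 and 5.50 after 6 h. No library of ZC3H7B-OE reached a control library of the same time. NDUFB5 fell by 1.38 on the log2 scale (SE 0.21, edgeR adjusted p = 2.75e-06, 2.61-fold lower), and by 1.13 without the control library at 148 CPM. The counts behind this were 752 reads in control and 299 in ZC3H7B-OE.

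NDUFC2, a proximal subunit, had 229, 229 and 503 CPM in control at the start, 200, 225 and 213 after 2 h, 147, 129 and 148 after 4 h, and 126, 112 and 142 after 6 h. In ZC3H7B-OE it had 163, 172 and 165 CPM at the start, 183, 176 and 164 after 2 h, 94.3, 107 and 109 after 4 h, and 93.4, 102 and 91.2 after 6 h. ZC3H7B-OE was again below control in every library of every time, and NDUFC2 fell by 0.52 (SE 0.09, edgeR adjusted p = 3.23e-05), or by 0.41 without control 0 h replicate 3. The read-through entry NDUFC2-KCTD14, which starts in the same gene, went the other way with a line difference of 0.50 (SE 0.17, adjusted p = 0.0151). How reads were divided between the 2 overlapping entries is not given in the sources used here. NDUFA3, a small proximal subunit, had 32.3 to 232 CPM in control (median 54.1) and 43.3 to 133 in ZC3H7B-OE (median 81.5). Its libraries were apart at 2 and 4 h and overlapped at 0 and 6 h, and it rose by a log2 of 0.34 (SE 0.13, adjusted p = 0.0364). NDUFA11, an accessory subunit of the same part, rose by 1.05 (SE 0.31, adjusted p = 0.00585). NDUFA11 was thinly counted, with 78 and 167 reads in the lines; its control libraries held 1.14 to 10.3 CPM and those of ZC3H7B-OE 2.68 to 9.21, and without the 4 h libraries it did not pass (0.84, adjusted p = 0.0786). NDUFA13, the member with the most reads, had a line difference of -0.06 (SE 0.11, adjusted p = 0.684).

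**Figure D3:**
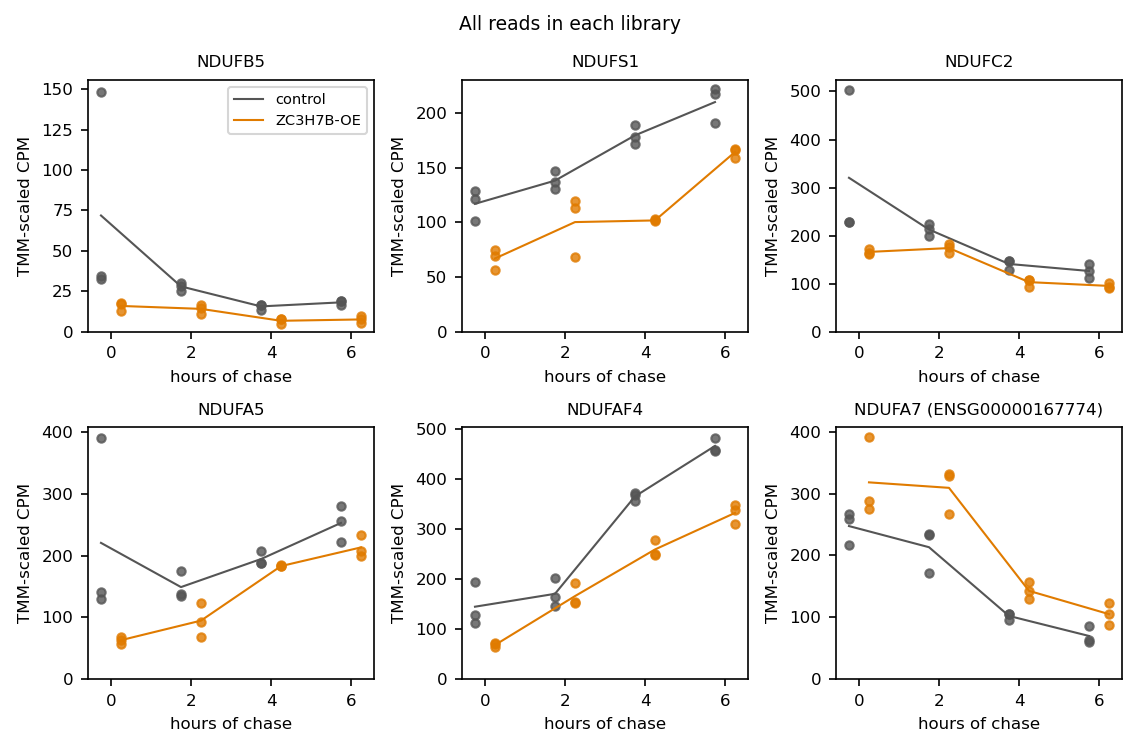
TMM-scaled CPM (y axis, from 0) of all reads in each library against hours of chase (x axis) for 6 called members, control in grey and ZC3H7B-OE in orange; points are libraries, offset sideways by line, and lines join group means. Control 0 h replicate 3 is the single high point of NDUFB5 (148 CPM), NDUFC2 (503 CPM) and NDUFA5 (392 CPM), and NDUFAF4 climbs in both lines.

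Of the assembly factors, NDUFAF4 alone carried enough reads for a firm estimate, with 9061 reads in control and 6699 in ZC3H7B-OE against 96 to 245 for NDUFAF3, NDUFAF5 and NDUFAF7 in a line. NDUFAF4 joins NDUFAF3 on an early intermediate of the Q module. It had 129, 113 and 194 CPM in control at the start, 202, 146 and 165 after 2 h, 368, 357 and 372 after 4 h, and 460, 458 and 483 after 6 h. In ZC3H7B-OE it had 63.5, 69.3 and 71.9 CPM at the start, 192, 155 and 152 after 2 h, 249, 279 and 251 after 4 h, and 338, 349 and 311 after 6 h. The lines were apart at 0, 4 and 6 h and overlapped at 2 h. NDUFAF4 fell by 0.52 on the log2 scale (SE 0.08, edgeR adjusted p = 9.01e-07, 1.44-fold lower), with differences of -1.07 at 0 h, -0.04 after 2 h, -0.50 after 4 h and -0.49 after 6 h. The line difference changed along the chase for this member alone of 38 (F test of the interaction, adjusted p = 0.0487; 1.73% of all entries), and that call was lost when any of 14 single libraries was left out, with adjusted p from 0.00829 to 0.152. NDUFAF3, the partner of NDUFAF4, had a line difference of 0.03 (SE 0.21), NDUFAF5, which modifies the core subunit NDUFS7, 0.15 (SE 0.25), and NDUFAF7, a methyltransferase, -0.50 (SE 0.30, adjusted p = 0.175), none of them called. The medians of subunits and assembly factors are descriptions, since they rest on 31 and 4 entries.

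Other genes needed to build complex I, from a list outside the NDUF names, were again divided: of 11 tested out of 13, 3 rose and 3 fell. The 3 with the smallest adjusted p were ECSIT, a partner of NDUFAF1, which rose by a log2 of 0.56 (SE 0.07), ATP5SL, which rose by 0.31 (SE 0.06), and TMEM126B, which works with ECSIT and fell by 1.39 (SE 0.35). Among regulators of respiratory chain genes, 2 rose and 1 fell of 9 tested: the coactivators PPARGC1B (0.97, SE 0.08) and PPRC1 (0.75, SE 0.21) were higher, and GABPA, which binds many of these promoters, fell by 0.30 (SE 0.08). For comparison, 7 rose and 6 fell of 38 tested genes of complexes II to V. Beside each of these lists stand the shares of all entries, 20.3% higher and 25.4% lower.

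Counts at single times changed when control 0 h replicate 3 was left out. Over the members the median line difference was -0.59 at 0 h, 0.24 after 2 h, 0.47 after 4 h and 0.11 after 6 h. Over all entries it was -0.05, 0.02, -0.03 and 0.02. Without control 0 h replicate 3 the medians were -0.04, 0.23, 0.47 and 0.09 over the members. Over all entries they were then 0.01, 0.02, -0.03 and 0.01. At 0 h 12 of 38 were called (1 higher, 11 lower; 31.2% of all entries, 11.7% higher and 19.5% lower), and without control 0 h replicate 3 this was 6 of 39 (20.2%). Of the 11, NDUFA2, NDUFA4, NDUFA9, NDUFA13, NDUFB6 and NDUFB11 did not pass without it, while NDUFB5, NDUFA5, NDUFS1, NDUFC2 and NDUFAF4 did. At 2 h 1 of 38 was called, NDUFA7 (ENSG00000167774) with 0.53 (9.45% of all entries; 2.19% higher, 7.26% lower). At 4 h 7 were called (17.7% of all entries; 6.79% higher, 10.9% lower): NDUFB7, NDUFB10 and both NDUFA7 entries were higher and NDUFV2, NDUFS1 and NDUFAF4 lower. Without the 0 h library the count at 4 h was 17 of 39 (27% of all entries), 12 of them higher (11.8%). At 6 h 3 were called (15.8% of all entries; 6.54% higher, 9.23% lower), NDUFA7 (ENSG00000167774) higher and NDUFB5 and NDUFAF4 lower, and 8 of 39 without that library (25.4% of all entries).

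Along the chase, subunit mRNAs made up less and less of the RNA pool in both lines. Between 0 and 6 h in control, 27 of 38 members fell and 3 rose, where 29.9% of all entries fell and 30.7% rose (60.6% called); the median change was -1.39 for the members and -0.05 for all entries. In ZC3H7B-OE 22 fell and 4 rose (30.6% and 32.8% of all entries, 63.4% called), with medians of -1.02 and -0.08. Genes of complexes II to V (30 of 38 lower in control, median -1.67) and of the mitochondrial ribosome (48 of 64, median -1.30) fell in large part as well. Without control 0 h replicate 3, 21 of 39 fell and 4 rose in control (27.8% and 31% of all entries), with a median of -0.93 for the members and -0.01 for all entries. These are shares of a library's reads, and with relative log expression size factors 27 members fell in control and 20 in ZC3H7B-OE, and with upper quartile scaling 29 and 26. The summed subunit reads came to 3186 ± 892 reads per 1000000 (SD, n = 3) at the start, 2172 ± 89.3 after 2 h, 1538 ± 21.9 after 4 h and 1337 ± 19.5 after 6 h in control. In ZC3H7B-OE they were 2426 ± 181, 2368 ± 74.9, 1799 ± 302 and 1347 ± 29.7, with little change over the first 2 h. Control 0 h replicate 3 stood at 4215, and the other libraries at no more than 2683.

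The falls were broad across the membrane arm and the N module. In control 6 of 7 proximal, 8 of 10 distal and 6 of 8 N module entries fell, against 1 of 5 in the Q module. Over all entries 29.9% fell. Without control 0 h replicate 3, NDUFV2 of the N module (edgeR adjusted p = 0.228) and NDUFB4 of the distal part (0.602) no longer passed. NDUFB1, a small distal subunit, fell most among the subunits, by 2.60 (SE 0.87, adjusted p = 0.0105), but had 5, 8 and 14 reads at 0 h and 1, 2 and 6 after 6 h, and did not pass without control 0 h replicate 3 (fell by 1.76, adjusted p = 0.101). NDUFA4, the complex IV subunit, had 37.9, 38.1 and 162 CPM at the start, 12.3, 16.2 and 16.2 after 2 h, 12.6, 15.1 and 12.6 after 4 h, and 15.3, 9.81 and 11.7 after 6 h in control. Its level dropped before 2 h and was level after that; the fall was 2.64 (SE 0.52, edgeR adjusted p = 0.00017), or 1.61 without that library. NDUFA13, an accessory subunit of the proximal part, went from 968, 889 and 2158 CPM at the start through 685, 856 and 658 after 2 h and 379, 371 and 402 after 4 h to 302, 289 and 281 after 6 h in control. In ZC3H7B-OE it went from 761, 914 and 848 CPM through 853, 833 and 721 and then 380, 559 and 506 to 279, 297 and 276. It fell by 2.20 (SE 0.23) in control, by 1.66 without control 0 h replicate 3, and by 1.57 (SE 0.22) in ZC3H7B-OE.

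A few members ran against this. NDUFAF4 rose by 1.70 in control (SE 0.15, edgeR adjusted p = 2.47e-11, 3.26-fold) and by 2.28 in ZC3H7B-OE (SE 0.16, 4.87-fold), and NDUFS1 by 0.84 (SE 0.16) and 1.30 (SE 0.16). NDUFS3 was called higher in control at 2.65 (SE 0.94, adjusted p = 0.0157), from the 0, 2 and 0 reads given above, and was at 0.02 in ZC3H7B-OE; without control 0 h replicate 1 it did not pass (adjusted p = 0.103). NDUFA5 rose by 1.76 in ZC3H7B-OE (SE 0.29) and NDUFA9 by 1.07 (SE 0.29), while in control they were at 0.22 (SE 0.27) and -0.42 (SE 0.28). The test of the difference between the lines passed for these 2 of 38 members, NDUFA5 with 1.53 (SE 0.40, adjusted p = 0.0429) and NDUFA9 with 1.49 (SE 0.40, adjusted p = 0.0396), where 2.53% of all entries were called (2.24% higher). With 1 library left out at a time 0 to 3 members passed, and 0 passed in 9 of the 24 fits; with a term for the replicate number 1 passed. Without control 0 h replicate 3, in which NDUFA5 stood at 392 CPM, NDUFA5 rose by 0.92 in control too; the difference between the lines then passed for NDUFA5 (adjusted p = 0.0117) and not for NDUFA9 (adjusted p = 0.105). Of the 4 assembly factors tested, 2 fell and 1 rose in control, and 0 fell and 1 rose in ZC3H7B-OE. Without control 0 h replicate 3, 0 fell and 1 rose in control, where NDUFAF3 had an adjusted p of 0.0554 and NDUFAF5 of 0.226 by edgeR.

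**Figure D4:**
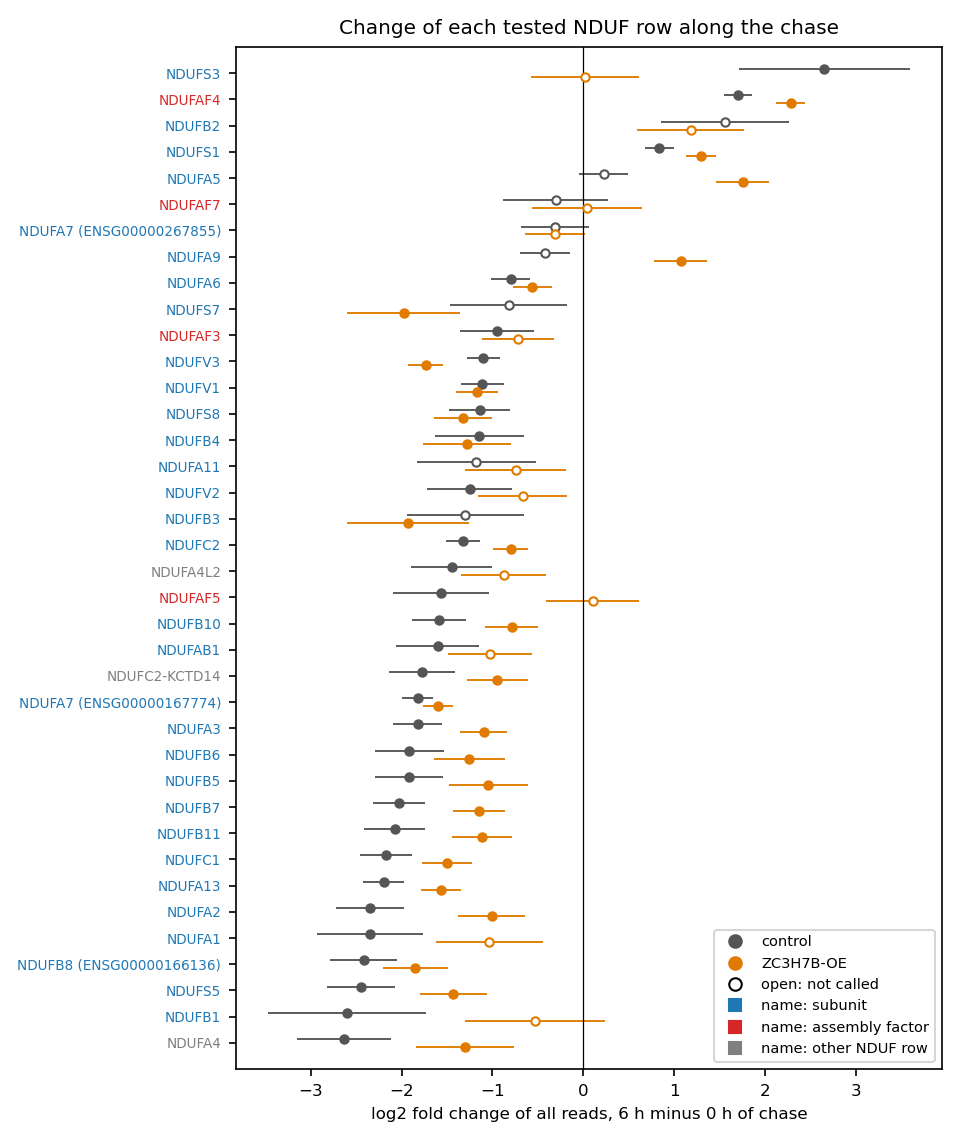
Log2 fold change of all reads between 0 and 6 h of chase (x axis) for each of the 38 NDUF entries tested, control in grey and ZC3H7B-OE in orange, with bars of 1 SE and open points for values not called; name colours give the class. Most subunits lie left of 0 in both lines, and NDUFAF4 (1.70 and 2.28) and NDUFS1 (0.84 and 1.30) lie to the right in both.

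Summed over all subunits, the share of labelled reads fell less along the chase than in NDUFAF4, while single subunits such as NDUFS1 had a course close to that of NDUFAF4. Over a whole library it was 76.7% ± 1.67 (SD, n = 3) at 0 h and 29.9% ± 0.729 after 6 h in control. Over all subunit reads it was 52.2% ± 0.918 at 0 h, 56.2% ± 2.44 after 2 h, 45.4% ± 0.592 after 4 h and 36.2% ± 1.00 after 6 h in control, and 48.7% ± 0.508, 50.7% ± 1.10, 40.6% ± 1.03 and 32.7% ± 0.936 in ZC3H7B-OE. Subunit reads were thus less labelled than the library at the end of the pulse and more labelled at 6 h. Over assembly factor reads it was 93.5% ± 2.17, 76.0% ± 2.69, 37.9% ± 2.26 and 21.8% ± 1.54 in control. NDUFAF4 made up 71.1% to 97.0% of those reads, so this is close to its own course: pooled over replicates, its share went from 96.3% to 21.4% in control; in ZC3H7B-OE it started at 95.7% and ended at 19.2%. Pooled in the same way, NDUFS1 went from 92.4% to 28.1%, NDUFA6 from 91.8% to 32.1% and NDUFA5 from 90.4% to 34.8% in control. In the other assembly factors together, the share at 6 h was 33.6% ± 11.4 in control, a spread too wide to place them.

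Per entry, the median share of the 26 subunits in the labelled-against-unlabelled fit went from 72.7% at 0 h to 47.2% after 6 h in control, and over all 7835 entries of that fit from 88.5% to 28.5%. The change between 0 and 6 h had a median of -20.2 percentage points in subunits and -57.5 over all entries in control, and -19.0 and -57.0 in ZC3H7B-OE. Complexes II to V had -17.9 and -14.8, close to the subunits of complex I, while mitochondrial ribosomal proteins had -49.9 and -41.7. In a test of this change chosen after the values were seen, 20 of 32 members fell in control (89.3% of all entries; 89.4% called) and 20 of 32 in ZC3H7B-OE (86.8%; 86.9% called). In control 2 members, NDUFA3 and NDUFB8 (ENSG00000166136), passed as higher (0.0766% of all entries).

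NDUFA13 is named here after its values were seen, because its labelled share lay between 21.4% and 27.1% in all 24 libraries. It was 22.9%, 21.7% and 25.1% at 0 h, 26.9%, 23.9% and 23.9% after 2 h, 25.1%, 26.9% and 24.1% after 4 h, and 27.1%, 25.1% and 26.6% after 6 h in control. In ZC3H7B-OE it was 24.6%, 21.7% and 21.4%, then 24.97%, 26.1% and 26.0%, then 23.2%, 26.5% and 25.9%, then 26.0%, 23.7% and 24.3%. With 754 to 2342 reads per library, the log2 odds of labelled against unlabelled reads at 6 h against 0 h were 0.24 in control (SE 0.13, adjusted p = 0.0718) and 0.17 in ZC3H7B-OE (SE 0.13, adjusted p = 0.194). NDUFA13 made up 20.3% to 37.5% of subunit reads; without it the subunit share in control was 68.3% ± 1.62 at 0 h and 38.8% ± 0.890 after 6 h. The NDUFA13 transcript used here has 13 T in a 3′ UTR of 72 bases, and a read with few T bases has few places to show a conversion; its part in the labelled share was not tested. Across 31 members, the labelled share at 0 h in control had a Pearson r of 0.39 and a Spearman rho of 0.55 with the number of T in the 3′ UTR, and 0.24 and 0.38 across 7419 genes. This is a description over genes that share libraries and base composition. NDUFS5, a proximal subunit, had a labelled share of 52.4% and 54.8% pooled over replicates at 0 and 6 h in control.

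**Figure D5:**
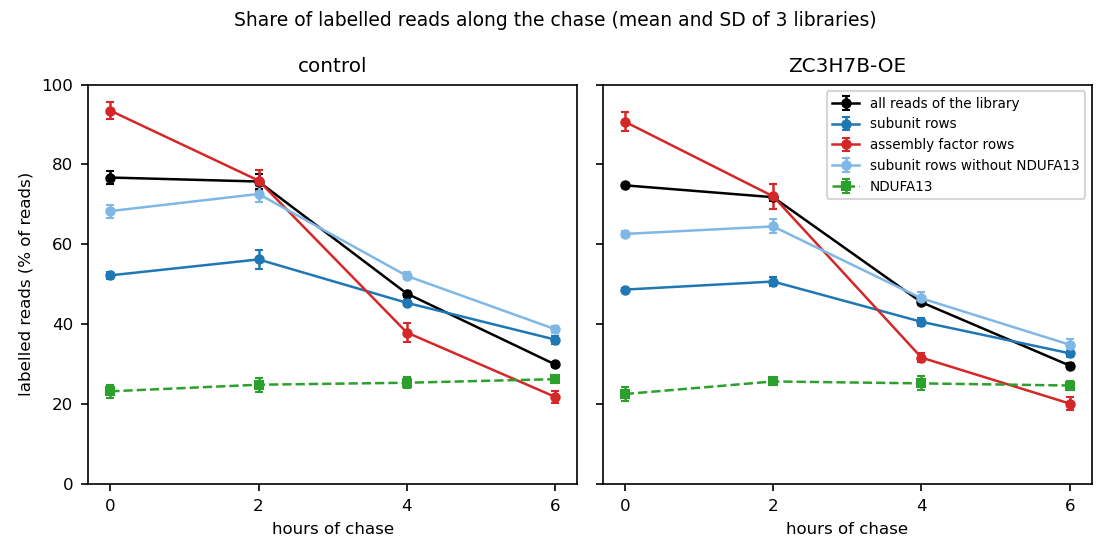
Labelled reads as a percentage of reads (y axis, from 0) against hours of chase (x axis) in control (left) and ZC3H7B-OE (right), for whole libraries, all subunit reads with and without NDUFA13, all assembly factor reads and NDUFA13; points are means and bars SD of 3 libraries. Assembly factor reads go from 93.5% to 21.8% in control, all subunit reads from 52.2% to 36.2%, and NDUFA13 stays nearly level.

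Labelled reads, scaled by the library size of all reads, were also fitted with a slope over hours. In control 33 of 35 members tested fell (75.5% of all entries; 77.3% called, 1.87% higher), with a median of -0.35 log2 per h against -0.26 over all entries, and in ZC3H7B-OE 27 of 35 fell (72.3% of all entries; 74.3% called, 1.97% higher), with medians of -0.26 and -0.24. Without control 0 h replicate 3, 28 of 36 fell in control (72.2% of all entries), and the median was -0.27 both for the members and for all entries. This scale mixes label with level: a gene whose reads fall as a share of the library loses labelled reads too. The steepest called falls in control were NDUFC2-KCTD14 at -0.66 (SE 0.11), NDUFB5 at -0.55 (SE 0.07) and NDUFB7, a distal subunit, at -0.49 (SE 0.07). They correspond to half-lives of labelled reads on this scale, which need not be those of the mRNA, of 1.51, 1.83 and 2.04 h. The labelled reads behind them were 25, 29 and 16 at 0 h and 0, 5 and 3 after 6 h for NDUFC2-KCTD14, 48, 35 and 99 against 15, 15 and 14 for NDUFB5, and 37, 30 and 36 against 8, 6 and 13 for NDUFB7. The shallowest called falls were NDUFS1 at -0.15 (SE 0.04), NDUFA5 at -0.19 (SE 0.04) and NDUFA3 at -0.20 (SE 0.06), half-lives of 6.54, 5.16 and 4.95 h. Without control 0 h replicate 3, NDUFC2-KCTD14 was at -0.70, NDUFB5 at -0.40 and NDUFB7 at -0.43, half-lives of 1.42, 2.49 and 2.33 h. NDUFV3, at -0.41, was then steeper than NDUFB5. In the same fit NDUFA5 was at -0.10 and NDUFA3 at -0.13. NDUFAF4, whose total reads rose, had a slope of -0.07 (SE 0.04, adjusted p = 0.155), although its labelled share fell from 96.3% to 21.4%. With library sizes of the labelled reads themselves, 11 members fell in control and 2 in ZC3H7B-OE, and the slopes of NDUFS1, NDUFA5 and NDUFA3 were above 0.

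Between the lines, no slope differed by the edgeR test: 0 of 35 members were called (0% of all entries), with 6 at an unadjusted p under 0.05 (5.49% of all entries), all 6 less steep in ZC3H7B-OE. The median difference in slope was 0.09 log2 per h over the members and 0.02 over all entries. Without control 0 h replicate 3 both medians were 0.02, that of the subunits was -0.02, and 0 of 36 members were called. In labelled against unlabelled reads, 1 of 32 members was called at 4 h (4.58% of all entries, 4.28% lower) and 0 for 6 h (8.19%, 4.65% higher and 3.55% lower), where 5 had an unadjusted p under 0.05 (19.9% of all entries), all lower. The call at 4 h was NDUFS1, with 45.0%, 47.0% and 51.8% labelled in control and 30.3%, 31.4% and 40.9% in ZC3H7B-OE. Its log2 odds fell by 0.83 (SE 0.25, edgeR adjusted p = 0.0406). The call was lost in 9 of 18 fits that each left out 1 library, with adjusted p up to 0.209. At 6 h NDUFS1 had 30.6%, 28.1% and 25.5% in control and 18.2%, 19.3% and 21.4% in ZC3H7B-OE, which is again lower in every library, without passing the test. NDUFS1 shares exonic sequence with EEF1B2 on the other strand.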

How the data were processed

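The deposited tables give raw counts of all reads and of reads with T>C conversions per gene in each library, with no normalization by the authors. The submitters' processing notes name fastp and GRCh37; aligner, counter and strand setting: not given in the sources used here. NDUF entries and all gene lists were chosen with earlier results of these data known. All-read counts were fitted over all entries with edgeR 4.0.16 in R 4.3.3 (TMM, robust quasi-likelihood, filterByExpr with a minimum count of 10, 1 mean per group), and Benjamini-Hochberg adjusted p under 0.05 was called; the tests are two-sided. Label slopes used T>C counts with all-read library sizes. Labelled and unlabelled counts were compared in an edgeR fit with library as a term. Members named with values were those with the smallest adjusted p in each direction (line difference), the largest called chase changes, the steepest and shallowest called slopes with at least 50 labelled reads at 0 h in control, and any member called for a difference between lines. Alternatives included relative log expression size factors, upper quartile scaling, no filter, a replicate block, single times, left-out times and left-out libraries. The line difference was also fitted with DESeq2 1.42.0 and with limma-voom. The fits were tested on simulated data. Same-numbered replicates did not pair: correlations ranged from -0.117 to 0.214 and 1 of 12 was over 0.1. Replicates differed by more than sampling noise (chi-square per degree of freedom 2.28 to 30.4). PCR copies are not independent reads, so counts bound counting error only. Some results on single members are not reported here.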

Additional observations from a re-analysis of the deposited data

Results flagged for a closer look

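For 3 results a test found that an effect differed between groups. The line difference of NDUFAF4 changed along the chase (edgeR adjusted p = 0.0487), with values of -1.07, -0.04, -0.50 and -0.49 at 0, 2, 4 and 6 h. The change from 0 to 6 h of NDUFA9 differed between the lines (edgeR adjusted p = 0.0396), with -0.42 in control and 1.07 in ZC3H7B-OE. That of NDUFA5 differed too (edgeR adjusted p = 0.0429), with 0.22 in control and 1.76 in ZC3H7B-OE. Without control 0 h replicate 3, NDUFA5 rose by 0.92 in control and still passed (edgeR adjusted p = 0.0117). NDUFA9 then did not pass (edgeR adjusted p = 0.105). With 1 library left out at a time, 0 members passed for this difference in 9 of 24 fits. The NDUFAF4 call was lost in 14 of 24. Without control 0 h replicate 3 the line difference of NDUFA5 also changed along the chase (edgeR adjusted p = 0.00341).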

How the results depend on the processing

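Most counts of called members stayed within 1.5 times their value, and of the values for single genes 611 kept their direction and side of the threshold, 28 lost the call and 3 changed sign. Members whose change from 0 to 6 h differed between lines numbered 7 without the filter, 1 with the replicate block and 1 with upper quartile scaling, against 2. Members whose line difference changed along the chase numbered 13 without the filter and 0 with the replicate block, where NDUFAF4 had an adjusted p of 0.0646; with upper quartile scaling it was 0.0589. The block changed no other count by over 1.5 times. Fitted on the libraries of 1 time alone, 2 members were called for 0 h, 3 for 2 h, 17 for 4 h and 8 for 6 h; without the filter 3 were called at 2 h and 15 at 4 h. Members higher in ZC3H7B-OE numbered 13 without 0 h and 2 without 4 h, and members lower 5 without 4 h. With library sizes of labelled reads, 11 members lost label in control and 2 in ZC3H7B-OE, and the slopes of NDUFA3 (0.046), NDUFA5 (0.052) and NDUFS1 (0.094) turned positive. The cause was not tested in any of these. Upper quartile scaling was chosen after seeing the data.

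Leaving out 1 library at a time gave 5 to 11 members higher and 6 to 9 lower between lines; 21 to 30 lower and 2 to 4 higher along the chase in control, and 15 to 23 lower and 4 to 5 higher in ZC3H7B-OE; and 0 to 3 differing between lines. Called members ranged from 6 to 16 for 0 h, 0 to 5 for 2 h, 1 to 17 for 4 h and 0 to 8 for 6 h, and from 0 to 11 for the change along the chase. Falling label slopes ranged from 28 to 33 in control and 25 to 29 in ZC3H7B-OE, with 0 differing. Labelled against unlabelled reads gave 14 to 20 lower in control, 12 to 20 in ZC3H7B-OE, 0 to 1 called at 4 h and 0 at 6 h. Depth limits the 11 members that were not tested and those with under 200 reads in a line, such as NDUFS3, NDUFA11, NDUFB1 and NDUFAF7.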
